A study of Rattus norvegicus with 28 samples.

Results

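The T cell receptor complex genes described here are Cd3d, Cd3e, Cd3g, Cd4, Cd8a, Cd8b, Cd2, Cd5, Lck and Zap70, measured in rat spinal cord after severe spinal cord injury (SCI). They were looked up by gene symbol, and all 10 were found on the array among 35469 features, each with 1 probe on 1 spot. The study followed the injured cord over time and tested transplantation of neural progenitor cells (NPC). Adult female Sprague Dawley rats formed 7 groups of 4 arrays. T0 animals had no contusion (the sample labels call them sham, the paper uninjured). T1, T2, T4 and T8 animals received a contusion of 250 kdyn at the eighth thoracic segment and were sampled 1, 2, 4 and 8 weeks later. T1_NPC animals received NPC right after injury and were sampled at 1 week, and T2_NPC animals received NPC 1 week after injury and were sampled at 2 weeks. The cells came from cords of other adult rats that had been injured before harvest. Per the paper, injured controls received an equal volume of medium without cells. Tacrolimus, a calcineurin inhibitor that suppresses T cell activation, was given at 1 mg/kg from the day before transplantation until the end point. The protocol text is attached to every sample but ties the start of the drug to transplantation, so whether the groups without cells received it is not settled here. Each sample was a 1.5 cm cord segment holding the injury, with all of its cell types mixed.

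The T cell receptor recognises peptide held by major histocompatibility complex (MHC) molecules and cannot signal by itself. The CD3 chains carry the signal across the membrane, CD4 and CD8 are coreceptors for MHC class II and class I, and the kinases Lck and Zap70 start the cascade inside the cell. Several of these genes are not restricted to T cells: rat macrophages and microglia can express CD4, rat natural killer (NK) cells and some activated macrophages express CD8, and NK cells share CD2, Lck and Zap70. In a bulk sample, fewer cells of a type and less RNA per cell cannot be told apart.

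Probe positions are given in the rn4 build named in the scanner output. The CD3 probes lay together on chromosome 8, with Cd3g at chr8:47924376-47924435 (minus strand), Cd3d at chr8:47936669-47936728 (plus strand) and Cd3e at chr8:47950313-47950372 (minus strand), so that 25937 bases separated the outermost pair. The Cd8b probe (chr4:104552489-104552548) and the Cd8a probe (chr4:104593483-104593542) lay 40994 bases apart on the plus strand. Zap70 was read at chr9:35714961-35715020 (plus strand) and Cd2 at chr2:196345785-196345844 (minus strand), each within a single stretch of the genome. The probes for Cd4 (chr4:160989843-160990442), Cd5 (chr1:213216483-213217309) and Lck (chr5:148713169-148715276), all on the minus strand, covered 600, 827 and 2108 bases of genome with 60 bases of probe and therefore joined exons. The probe letters of the CD3 and CD8 genes and of Zap70 are shown because these genes differed most from each other in the results. The Cd3e probe is whole, that of Cd3g runs to its stop codon, and the others show their last 30 bases. Capitals mark an in-frame tyrosine, any 2 codons and leucine in Cd3g, which is the form of the signalling motif of CD3 chains, and the polyadenylation signal AATAAA in Cd3d.
Cd3d: cttccccttgtgctcaaccAATAAAgatgt
Cd3e: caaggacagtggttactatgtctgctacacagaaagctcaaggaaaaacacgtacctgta
Cd3g: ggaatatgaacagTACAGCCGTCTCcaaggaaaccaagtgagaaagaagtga
Cd8a: tactacatgacttcagagatttctcacaag
Cd8b: ggcagccatcttgctctctcaggccttgct
Zap70: tctacttccgctatttctgtgggagctcag

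Values are log2 values after quantile normalization between arrays by the authors, and their sample names conflict with the scanner outputs for 16 of the 28 arrays. Every scanner output had the same rank order as exactly 1 column of the value table, but for those 16 it was the column of another sample. The value table was used here, and the background flags of each array came from the scanner output of the same rank order. With the scanner outputs under their deposited sample names, no member was called in any comparison (limma, adjusted p under 0.05). Of all 35469 features, none was called higher against T0, and 0, 1, 0 and 0 were called lower at T1, T2, T4 and T8. The lack of calls against T0 was thus not particular to the members. At an unadjusted p under 0.05, 4, 3, 9 and 8 members passed at these times. Over the 12 undisputed arrays alone, 6 members were called at T2 and 8 at T8. Of all features, 5269 and 6336 were called higher at T2 and T8, and 6632 and 6978 lower. T1 and T4 each held 1 undisputed array, so calls at those times are not counted. All results below rest on the sample names of the value table. Between 74.5% and 82.7% of spots were well above background on an array, and no spot was saturated. T1_NPC replicate 2 stood apart from its group, with a mean correlation over all features of 0.971 with its 3 group mates, the lowest of the 28 arrays.

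Most members were higher in the injured cord than at T0, and by far the most in the CD8 genes. Calls rest on a limma fit of all 28 arrays, with p-values adjusted over all features by the method of Benjamini and Hochberg and a threshold of 0.05. At T1, 9 members rose and none fell, where 19.1% of all features were called higher and 25.1% lower. At T2, 8 rose and none fell (all features 17.7% higher and 22.2% lower). At T4, 7 rose and Zap70 fell (17.5% and 21.0%). At T8, 9 rose and none fell (18.2% and 21.5%). The median log2 change of the members was 2.16, 2.21, 1.94 and 2.28 at the 4 times, where that of all features was -0.10, -0.05, -0.06 and -0.04. The member medians rest in part on Cd3e and Cd5 at T1 and on Cd2 at the later times. These genes were not well above background on any T0 array, so the size of the medians depends on how background was treated. The 4 comparisons share the T0 arrays and are not independent of each other.

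**Figure D1:**
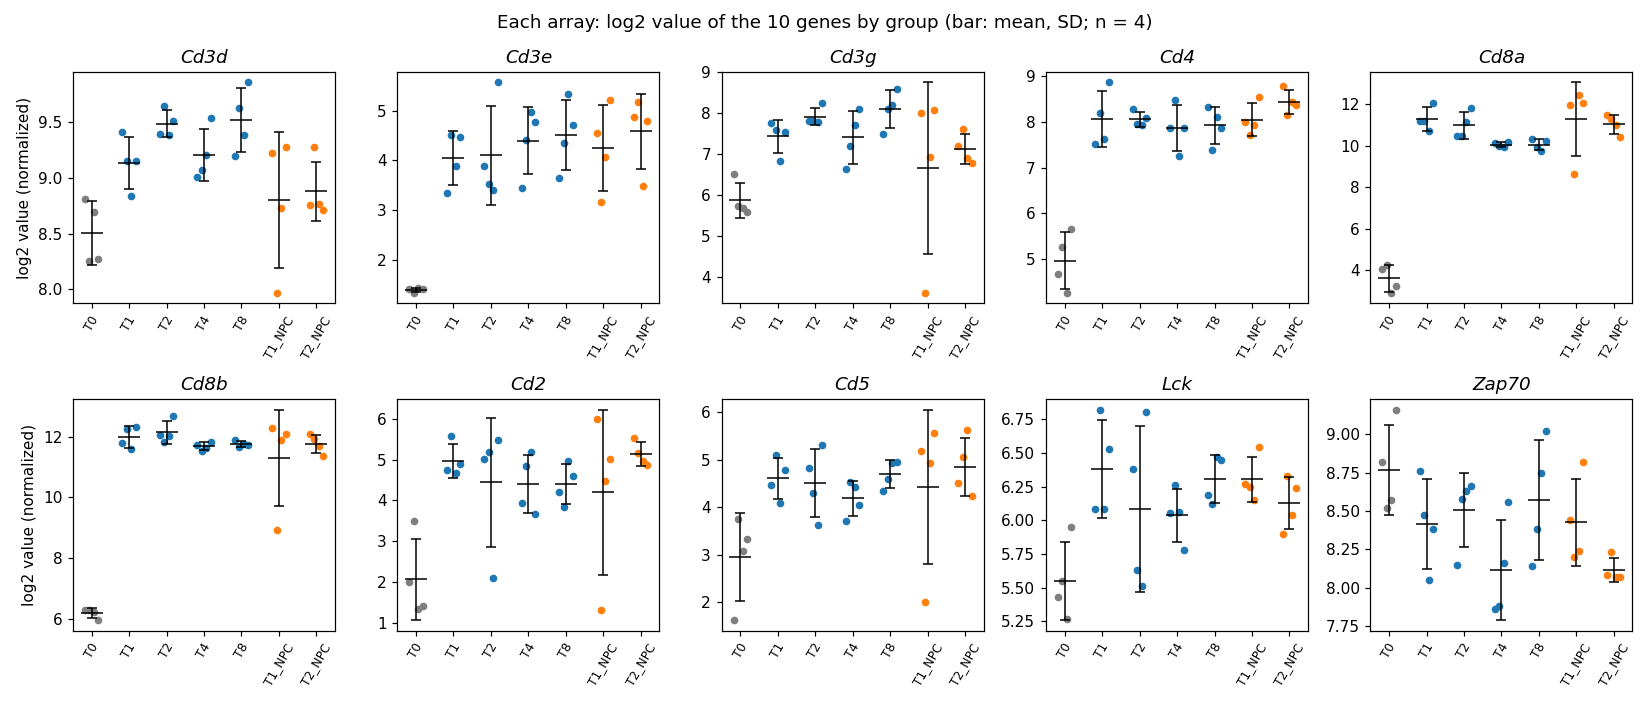
Log2 value (vertical axis) of each member on every array, by group (horizontal axis); points are arrays, bars the mean and SD of 4 arrays, grey T0, blue injured and orange transplanted. Cd8a and Cd8b show the widest gap between T0 and the injured groups, Zap70 overlaps, and T1_NPC replicate 2 lies lowest of its group in 9 members, all but Lck.

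Cd8a and Cd8b encode the chains of the CD8 coreceptor, which binds MHC class I. The log2 values of Cd8a at T0 were 4.07, 4.26, 2.92 and 3.24, with 1 of 4 arrays well above background. The T1 arrays read 11.17, 11.19, 10.72 and 12.06 and the T2 arrays 10.48, 10.46, 11.15 and 11.79. The T4 arrays read 10.12, 9.97, 9.93 and 10.17 and the T8 arrays 10.32, 9.93, 9.73 and 10.24. Every injured array was thus above every T0 array by a wide margin. Cd8a rose by 7.67 ± 0.54 (SE) on the log2 scale at T1 (limma adjusted p = 6.99e-11) and by 6.44 ± 0.54 at T8 (limma adjusted p = 2.22e-09). Since only 1 T0 array was well above background, the size of these changes depends on how background was treated. With normexp, a model-based background correction of the scanner signals used as an alternative to the authors' table, Cd8a rose by 4.59, 4.29, 3.41 and 3.42 in order of time, each still called. The mean was 10.97 at T2 and 10.05 at T4, but neither this step nor any other between neighbouring times passed the test. Cd8b stood at 6.28, 6.28, 6.22 and 5.95 at T0, well above background on all 4 arrays, and between 11.53 and 12.68 on the 16 injured arrays without cells. Its changes at these times were in turn 5.81, 5.96, 5.50 and 5.57 on the log2 scale (SE 0.44), which is 45.2-fold to 62.4-fold (limma adjusted p from 2.18e-10 to 1.1e-09). With normexp they were 4.47, 4.63, 4.15 and 4.24, all called. Within groups, the deviations of Cd8a and Cd8b from the group means correlated at r = 0.91 over 28 arrays, and at 0.81 over 27 without T1_NPC replicate 2.

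Cd4, the coreceptor for MHC class II, changed less than the CD8 genes but was called at every time. It read 4.68, 5.27, 4.26 and 5.65 at T0 and between 7.26 and 8.87 on the injured arrays without cells, with no overlap. Its log2 changes from the first to the last time were 3.10, 3.10, 2.91 and 2.96 (SE 0.31, limma adjusted p at most 8.42e-08). These are changes of 7.51-fold to 8.57-fold. With normexp they were 1.39, 1.37, 1.23 and 1.26 on the log2 scale, all called. The level was almost flat from T1 to T8, with group means between 7.88 and 8.07.

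The 3 CD3 chain genes rose as well, at levels and by amounts that differed between their probes. Cd3d was already well above background on all T0 arrays, at 8.81, 8.26, 8.70 and 8.27, and rose over the time course by 0.63, 0.98, 0.70 and 1.01 on the log2 scale (SE 0.22). Its range on injured arrays without cells, 8.84 to 9.86, lay just above that of T0. Its call at T1 was lost without any 1 of 5 arrays (T0 replicates 2 and 4, T1 replicates 1, 2 and 4; limma adjusted p up to 0.0785), and at T4 without T0 replicate 2 or T4 replicate 4 (up to 0.0585). Cd3g read 6.51, 5.72, 5.67 and 5.59 at T0 and between 6.63 and 8.59 on injured arrays without cells, again without overlap. Its rises over the time course were 1.56, 2.04, 1.54 and 2.22 on the log2 scale (SE 0.60). The T1 and T4 calls of Cd3g were close to the threshold (limma adjusted p = 0.0384 and 0.0463). The T4 call was lost in 21 of the 28 fits that left out 1 array (adjusted p up to 0.122). It was also lost with the slide as a block (0.0556) and with the replicate number as a block (0.0502). Without T1_NPC replicate 2, the adjusted p at T4 was 0.000384. With normexp, the rises of Cd3g were 0.90, 1.18, 0.88 and 1.28. The T1 call of Cd3g was lost without any 1 of 6 arrays (T0 replicates 2, 3 and 4, T1 replicates 1, 2 and 4; adjusted p up to 0.0825).

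Cd3e could only be given as a bound. At T0 it read 1.40, 1.33, 1.43 and 1.41, not well above background on any array and close to the lowest value of the whole table, 1.2. On injured arrays without cells it ranged from 3.35 to 5.57, and 2, 2, 3 and 3 of 4 arrays were well above background at T1, T2, T4 and T8. The fitted change was 2.66 ± 0.49, 2.70 ± 0.49, 3.00 ± 0.49 and 3.12 ± 0.49 in that order (limma adjusted p at most 8.76e-05). Measured against the lowest signal that counted as above background at T0, the rise was at least 1.02-fold at T1, 1.05-fold at T2, 1.3-fold at T4 and 1.4-fold at T8. With normexp, the rise of Cd3e was 0.18, 0.21, 0.23 and 0.29, and its call was lost at T1, T2 and T4 (adjusted p = 0.133, 0.0834 and 0.0563).

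Cd3d and Cd3g varied together: their deviations from the group means correlated at r = 0.89 over 28 arrays, and at 0.84 without T1_NPC replicate 2. Cd3g and Cd8b, which lie on different chromosomes, reached 0.88 and 0.69 in the same way. Cd3d and Cd3e, on the same chromosome, reached only 0.46 and 0.35. The 5 features with a gene symbol that were most like the mean of the CD3 chains over all 28 arrays were Ctsw, Mst1, Casp12, Slc22a2 and Nr1h3, with r between 0.91 and 0.94. Ctsw, which encodes cathepsin W, a protease of cytotoxic lymphocytes, went from a mean of 1.48 at T0 to 5.02 at T1 and 5.79 at T8. Its T0 mean was close to the lowest value of the table, 1.2, so the size of its rise is uncertain. From T0 to T1, the means went from 5.30 to 8.47 for Mst1 and from 5.65 to 8.09 for Casp12. They went from 1.39 to 4.76 for Slc22a2 and from 10.85 to 12.42 for Nr1h3. The T0 mean of Slc22a2 was also close to 1.2, so the size of its rise is uncertain too. These correlations include the difference between T0 and the injured groups.

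Cd2 and Cd5, adhesion and regulatory receptors of T cells, were low throughout. Cd2 read 2.01, 3.49, 1.35 and 1.41 at T0, with no array well above background, and was called higher at all 4 times (2.90 ± 0.75 at T1, 2.34 ± 0.75 at T8). It rose at least 1.92-fold at T1 and 1.3-fold at T8 against the background limit. T2 replicate 3, at 2.09, was the only injured array without cells that overlapped T0. Cd2 lost its T2 call without T2 replicate 4 (limma adjusted p = 0.0527). With normexp its changes were 0.37, 0.31, 0.27 and 0.24, and the calls at T4 and T8 were lost (adjusted p = 0.0729 and 0.111). Cd5 read 1.63, 3.76, 3.09 and 3.33 at T0, also without an array well above background. It rose by 1.66 ± 0.56 at T1, 1.57 ± 0.56 at T2 and 1.76 ± 0.56 at T8, but its change of 1.23 ± 0.56 at T4 did not pass the test (limma adjusted p = 0.0877). Without T1_NPC replicate 2, Cd5 was called at T4 too (adjusted p = 0.0141). With normexp its changes were 0.28, 0.23, 0.19 and 0.27, called at the same 3 times. The lower bounds of its called rises were 1.51-fold, 1.41-fold and 1.61-fold. All 3 calls of Cd5 were lost without T0 replicate 1, its lowest array (adjusted p 0.0931 at T1, 0.129 at T2 and 0.0761 at T8). The T1 call was also lost without T1 replicate 2, and the T2 call without T2 replicate 1 or 4.

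The kinases moved little. Lck, which phosphorylates the CD3 chains, read 5.43, 5.55, 5.27 and 5.95 at T0 and was well above background on all 28 arrays. It rose by 0.83 ± 0.22 at T1 and 0.76 ± 0.22 at T8 (1.77-fold and 1.69-fold, limma adjusted p = 0.00412 and 0.0087). Its changes of 0.53 ± 0.22 at T2 and 0.49 ± 0.22 at T4 were not called (limma adjusted p = 0.0653 and 0.094). Lck was called at T2 without T0 replicate 4, T2 replicate 2 or T2 replicate 3, and at T4 without T0 replicate 4. It was also called at T2 with the scan session as a block (adjusted p = 0.0175), with the slide as a fixed block (0.00602) or a random one (0.0263), with scaling to the 75th percentile (0.0147) and with normexp (0.0475). At T4 the fixed slide block (0.0334) and the scaling to the 75th percentile (0.0409) gave a call. With normexp, the changes of Lck were 0.36, 0.26, 0.21 and 0.34. Zap70, which docks on the phosphorylated CD3 chains, was the only member with a negative change at all 4 times. It read 8.82, 8.52, 8.57 and 9.16 at T0 and 7.86, 7.88, 8.16 and 8.56 at T4, ranges that overlapped, and fell by 0.65 on the log2 scale at T4 (SE 0.20, limma adjusted p = 0.0126). At T1, T2 and T8 its change was -0.35, -0.26 and -0.19, each with SE 0.20 and none called. The T4 call was lost without T0 replicate 4 (adjusted p = 0.0555), and over the 12 undisputed arrays, with 1 array each at T1 and T4, the change was -0.13 at T4 and 0.07 at T1.

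**Figure D2:**
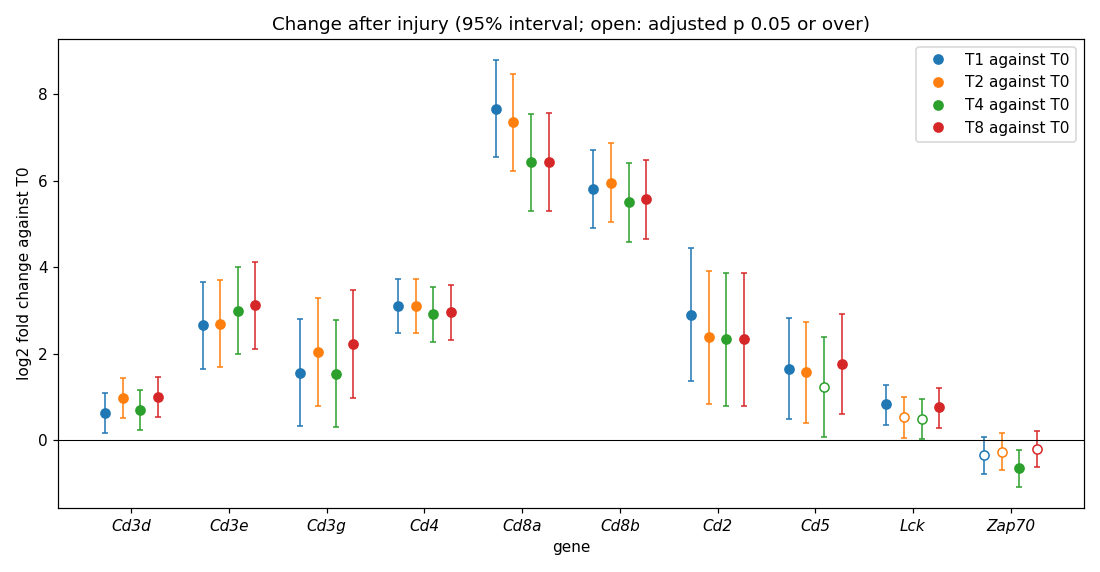
Log2 fold change against T0 (vertical axis) of each member (horizontal axis) at T1, T2, T4 and T8, with 95% intervals from limma; filled points passed an adjusted p under 0.05. Cd8a reaches 7.67 and Cd8b 5.96, whereas Lck stays under 1 and Zap70 lies below 0.

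The time-course arrays were scanned in 2 sessions, and slides held several groups, so differences could be taken within a slide. Over the 12 pairs of an injured array and the T0 array of its slide, the injured array was higher in 12 for Cd3d, Cd3e, Cd3g, Cd4, Cd8a, Cd8b, Cd2 and Lck, in 11 for Cd5 and in 4 for Zap70. The within-slide difference was 5.48 to 8.55 for Cd8a and 0.21 to 1.18 for Lck. Each T0 array served in several of these pairs, so the pairs are not independent of each other. The slide of a disputed array was taken from the scanner output of the same rank order. Within scan session 1, 6 members were called at T2 and 8 at T8. Of all 35469 features, 4738 and 5697 were called higher in those fits, and 5980 and 6447 lower. Within session 2, 9, 9, 8 and 7 members were called at T1, T2, T4 and T8. Of all features, 6418, 6378, 5588 and 5386 were called higher there, and 8420, 7635, 6710 and 6932 lower. Session 1 held a single T1 and a single T4 array, so its calls at those times are not counted. The 8 arrays of session 1 are the undisputed time-course arrays, and the 12 arrays of session 2 are all disputed. Zap70 at T4 changed by -0.13 within session 1, on its single T4 array, and by -0.87 within session 2 (limma adjusted p = 0.0296).

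From one time to the next, no member was called. This held for T2 against T1, where 1.48% of all features were called in either direction, for T4 against T2 (0.0761%) and for T8 against T4 (0.0902%). At an unadjusted p under 0.05, 0, 0 and 1 members passed in these comparisons. The log2 changes ranged from -0.53 to 0.48, from -0.92 to 0.30 and from 0.00 to 0.69 in turn.

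Other genes of the pathway moved in part. Their counts stand against the shares of all features given above, 17.5% to 19.1% higher and 21.0% to 25.1% lower, and a list near or below these gives no result about its genes. Of 20 measured genes of receptor signalling, among them Cd247 for the zeta chain of the complex and the Lck regulators Ptprc and Csk, 10 rose and none fell at T1, 10 rose and 2 fell at T2, 11 rose and none fell at T4, and 10 rose and 1 fell at T8. Cd247 itself was not called at T1 or T4 (limma adjusted p = 0.176 and 0.0923) but was at T2 and T8 (0.0193 and 0.0129). It was well above background on only 4 of 28 arrays, none of them T0 or T1, and allowed no fold at T1. The largest changes at T1 were in genes used by myeloid cells too: Vav1, an exchange factor (4.14 ± 0.39), Ptprc, the pan-leukocyte phosphatase CD45 (3.03 ± 0.26), and Lcp2, an adaptor (2.99 ± 0.26). Txk, a kinase, was called too, but it was not well above background on any T0 array and allowed no fold. Of 13 costimulatory and T cell surface genes, 6, 7, 6 and 6 rose at the 4 times, and 0, 1, 1 and 1 fell. At T1, Cd6 rose by 2.12 ± 0.30 and Lag3 by 1.66 ± 0.34 on the log2 scale. The inhibitory receptor gene Pdcd1 rose at least 1.33-fold and Tnfrsf18, named through its accession, at least 2.21-fold, neither being well above background on any T0 array. Of 19 effector and lineage genes, 1, 2, 1 and 3 rose and 2, 1, 1 and 1 fell. Gzma, encoding granzyme A (-1.18 ± 0.34), fell at T1 and Il7r rose (0.73 ± 0.26). Tbx21, a factor of type 1 T cells, was called lower but was well above background on only 1 array of T0 and none of T1. The counts in this last list were below the share of all features called.

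Genes of antigen presentation rose. Of 11 measured genes for MHC molecules, their regulators, the CD2 ligand Cd48 and the costimulatory ligands Cd80 and Cd86, 10, 10, 9 and 10 rose at T1, T2, T4 and T8 and none fell. At T1 the log2 changes were 3.42 ± 0.23 for Cd86, whose product binds CD28 and CTLA4 rather than a member, 2.61 ± 0.67 for RT1-Bb of MHC class II and 2.25 ± 0.30 for RT1-A2 of MHC class I. Ciita, the regulator of class II genes, rose at least 2.85-fold from a T0 group with no array well above background. Of 8 genes around calcineurin, the target of tacrolimus, 2 rose at each time and 3, 4, 3 and 4 fell. The 2 that rose are near the share of all features, and the list is too short to set its falls against that share. At T1 the changes of Rcan2, a calcineurin regulator, and of the catalytic subunit genes Ppp3ca and Ppp3cb were -1.08 ± 0.21, -1.06 ± 0.14 and -0.92 ± 0.16, all called, and that of Ppp3r2 was -0.94 ± 0.45 (limma adjusted p = 0.0981), the latter well above background on 9 of 28 arrays.

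Markers of other cells that share these genes were measured beside them. Of 6 further T cell markers, 2, 3, 3 and 4 rose and none fell, and all 6 are also among the signalling and costimulatory genes above. Cd28 and Trat1 stayed near the lowest values of the table at T1 (changes of 0.00 ± 0.14 and 0.01 ± 0.32), and both were picked out after their values were seen. Of 13 microglia and macrophage markers, 12, 11, 11 and 11 rose and none fell, and their mean log2 level went from 9.56 to 10.01 at T0 to 12.50 to 13.07 at T1, with each of the 13 above background on some array of every group. The largest of these were Cd68 (7.05 ± 0.16) and Lyz2 (5.04 ± 0.20) at T1. Of 7 NK cell markers, 3, 5, 3 and 4 rose and none fell, with mean levels of 4.28 to 4.64 at T0 and 5.21 to 6.07 at T1, led at T1 by Ncr3 (2.25 ± 0.30). Klrk1 was called as well but allowed no fold, with no T0 array well above background. Of the 7 NK cell markers, 4 were not well above background on any T0 array and 1 on any T1 array, so the rise of their mean is uncertain in size. Of 6 B cell markers, only Cd22 and Blnk rose at each time, and 3 of the 6 were not above background on any array of T1. Of 6 granulocyte markers, 3, 2, 1 and 1 rose, which at T4 and T8 is no more than the share of all features. Of 4 dendritic cell markers, 0, 1, 0 and 0 rose and 2, 1, 1 and 1 fell. Of 3 red blood cell markers, none rose and 0, 0, 1 and 1 fell. The dendritic and red blood cell lists were too short to set against the share of all features. Of 9 spinal cord markers, 1 rose at each time and 6, 7, 6 and 6 fell. The part of these cells in the changes of Cd4, Cd8a, Cd8b and the other members was not tested.

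**Figure D3:**
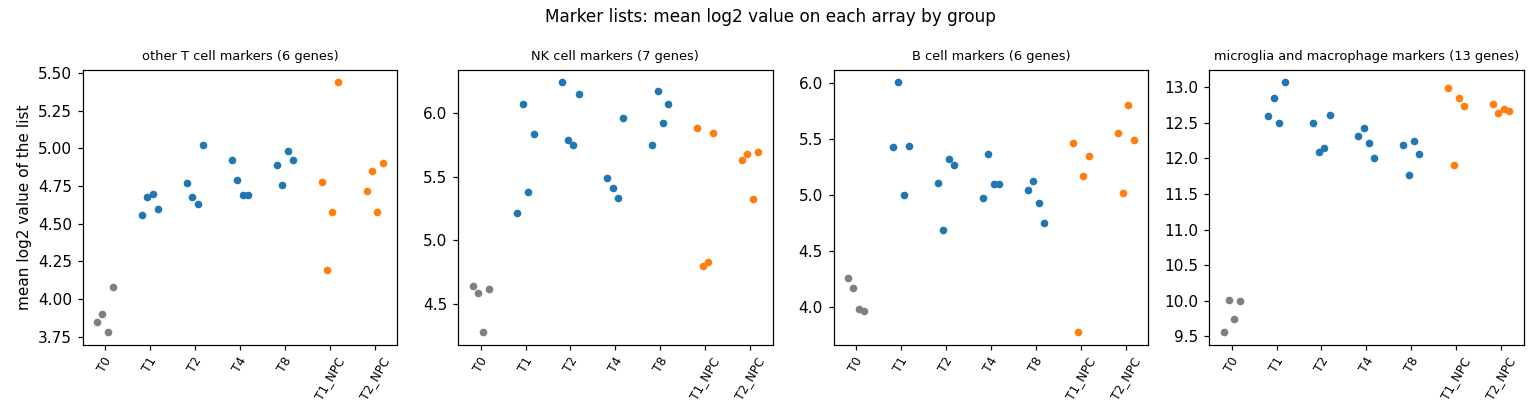
Mean log2 value (vertical axis) of the genes of 4 marker lists on each array by group (horizontal axis); grey T0, blue injured, orange transplanted. The microglia and macrophage list goes from 9.56 to 10.01 at T0 to 12.50 to 13.07 at T1, and the other T cell markers from 3.78 to 4.08 to 4.56 to 4.70. Of the 6 other T cell markers, 3 were not well above background on any T0 array and 3 on any T1 array, so the size of their rise is uncertain.

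Probes of the receptor chains themselves gave no common direction after injury, and many of them were dim. Of 83 features whose description names a T cell receptor chain, a list drawn from the array annotation after the files were opened, 9, 10, 6 and 12 rose and 13, 9, 14 and 13 fell at the 4 times. Both sets of counts were below the shares of all features called at each time. Their median change was -0.02, 0.08, -0.09 and -0.01. Of the 83, 42 were not well above background on any T0 array. At T1, T2, T4 and T8 in turn, 32, 30, 36 and 30 were not. A small median change of such probes does not show that the receptor chains were unchanged. In T1_NPC against T1, 12 of the 83 were called higher and 1 lower, where 1933 of all 35469 features were called higher and 2292 lower. Of the 83, 36 were not well above background on any T1_NPC array. In T2_NPC against T2, 2 were called higher and 1 lower, where 1638 of all features were called higher and 1721 lower. On the T2_NPC arrays, 32 were not well above background on any. Many of these probes are to similar sequences, which an array may not tell apart.

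No member was called after transplantation. In T1_NPC against T1, 0 of 10 members were called and none had an unadjusted p under 0.05, where limma called 11.9% of all features in either direction. In T2_NPC against T2, 0 of 10 were called and 1 had an unadjusted p under 0.05, with 9.47% of all features called. The difference between both transplantation effects was called for none, with an unadjusted p under 0.05 for none and 0.299% of all features called. Each transplanted group lay on a slide of its own in scan session 3, so slide, session and group cannot be told apart in these comparisons.

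At 1 week, 1 array set most of the differences. Cd8b read 12.27, 8.91, 11.90 and 12.10 in T1_NPC, and Cd8a read 11.98, 8.65, 12.43 and 12.06. Cd3g read 8.01, 3.61, 6.93 and 8.07, and the second array, T1_NPC replicate 2, was below every T0 array there. It also held the lowest Cd2 (1.32, the next array being at 4.48) and Cd5 (2.02 against 4.94 to 5.57) of its group. Lck, at 6.25, was not apart on that array. Its mean level of microglia and macrophage markers was 11.90 against 12.74 to 12.99 on the other 3 arrays. That of B cell markers was 3.78 against 5.17 to 5.47, with 4 of 6 genes not well above background on any T1_NPC array. Other T cell markers were at 4.19 against 4.58 to 5.44, with 3 of 6 genes not well above background on any T1_NPC array. NK cell markers were at 4.80 against 4.83 to 5.88, with 3 of 7 genes not well above background on any of these arrays. The antigen presentation genes were at 8.81 against 9.39 to 10.47. Lists that went the other way included granulocyte markers (6.32 against 5.46 to 5.79) and spinal cord markers (12.77 against 12.36 to 12.63). The part of these cells and genes in the low values of T1_NPC replicate 2 was not tested. With all 4 arrays, the change of Cd3g was -0.78 (95% interval -2.02 to 0.47), that of Cd8b -0.69 (-1.61 to 0.22) and that of Cd2 -0.77 (-2.31 to 0.78). Without T1_NPC replicate 2 these were 0.24, 0.10 and 0.20, and Cd8a went from -0.01 (-1.13 to 1.12) to 0.87. None of the 10 members was called with or without it.

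At 2 weeks, the largest falls against the injured cord were in Cd3g and Cd3d, and neither was called in the main fit. Cd3d read 8.76, 9.28, 8.77 and 8.71 in T2_NPC and 9.40, 9.65, 9.39 and 9.51 in T2, a change of -0.61 (95% interval -1.07 to -0.14, limma adjusted p = 0.0898). It was called without T1_NPC replicate 2 (adjusted p = 0.0275), with normexp background correction (0.0397), with only the groups compared in the fit and over the undisputed arrays. Cd3g read 7.20, 7.62, 6.91 and 6.79 in T2_NPC and 7.82, 7.82, 7.79 and 8.24 in T2, a change of -0.78 (-2.03 to 0.46, limma adjusted p = 0.462). The intervals of the other members at 2 weeks all held 0, the narrowest being those of Lck (-0.42 to 0.51) and Zap70 (-0.81 to 0.02), so that changes of about that size were not resolved.

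**Figure D4:**
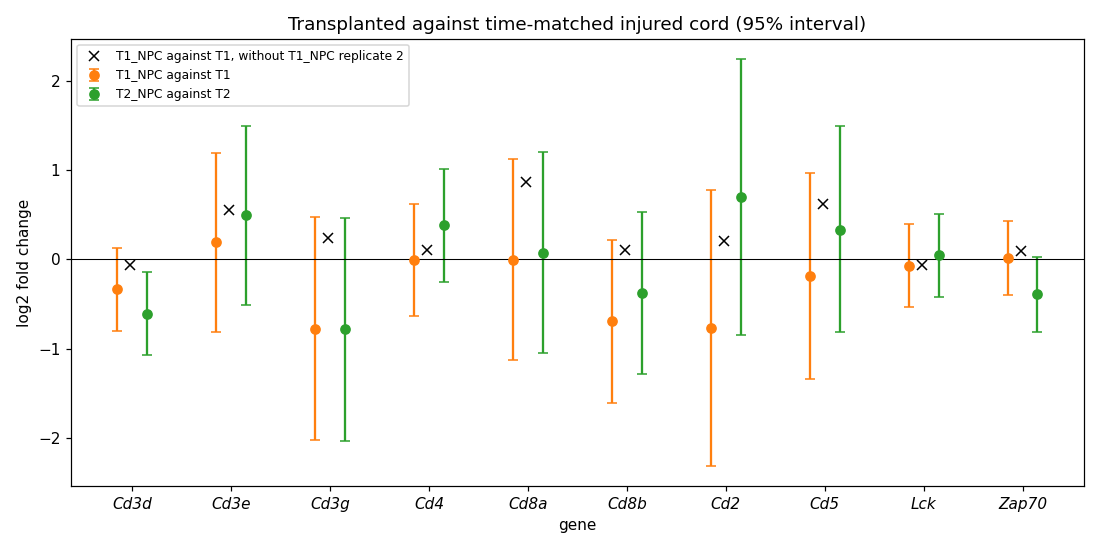
Log2 fold change of each member (horizontal axis) in T1_NPC against T1 (orange) and T2_NPC against T2 (green) with 95% intervals from limma; crosses give T1_NPC against T1 without T1_NPC replicate 2. Only the interval of Cd3d at 2 weeks, -1.07 to -0.14, lies off 0.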

How the data were processed

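Gene expression was measured on 28 single-dye Agilent arrays of rat spinal cord. Per the file headers, the scanner output (Agilent Feature Extraction 10.7.1.1, annotation build rn4) holds the intensity of each spot, corrected for background but not between arrays. The authors deposited a table of log2 values, quantile normalized between arrays, which was analysed here. Control spots were left out, and spots of a probe, then probes of a gene name, were averaged (35469 features), with no filter on dim probes. limma 3.58.1 (R 4.3.3) was fitted to all arrays with a mean per group, with Benjamini-Hochberg adjustment. Tests were also run on simulated data. Intensity served for background flags and alternatives. A bound was computed from the lowest signal well above background where no array of a group passed it. Lists held 133 entries, of which 14 were not found. Named are all members, up to 4 genes per list by size of change, and the 5 features most like the CD3 chains. Values of Cd247, Cd28 and Trat1 are given outside this rule. The members and lists were chosen with earlier results of these data known. Alternatives covered sample names, scaling, background correction, dim probes, blocks, scan sessions and each array left out. Replicates are separate animals. The number of arrays limits the precision.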

Additional observations from a re-analysis of the deposited data

Results flagged for a closer look

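Among 70 sets of 4 arrays (10 members in 7 groups), 7 held an array far from the other 3, by the gap to the nearest array as a share of the whole range; chance alone gives about 1 in 20. In T1_NPC, replicate 2 was low for Cd8a (gap 0.882 of the range, 8.65 against 11.98 to 12.43) and for Cd8b (0.891, 8.91 against 11.90 to 12.27). Cd2 was low in T2 replicate 3 (0.864, 2.09 against 5.02 to 5.48). Cd3g was high in T0 replicate 1 (0.861, 6.51 against 5.59 to 5.72) and in T2 replicate 4 (0.932, 8.24 against 7.79 to 7.82). T2_NPC replicate 2 was high for Cd3d (0.902, 9.28 against 8.71 to 8.77) and for Zap70 (0.923, 8.23 against 8.07 to 8.08), the latter within a narrow range. Cd3g and Cd2 of T1_NPC replicate 2, although lower still, did not pass because the other 3 arrays were themselves spread.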

How the results depend on the processing

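The sample names decided more than any other choice. With the scanner intensities under their deposited samples, 0 members were called at T1, T2, T4 and T8 against T0. Of all features, none was called higher there and 0, 1, 0 and 0 lower, so this was not particular to the members. The cause was not tested. Zap70 then changed by 0.43, 0.19, 0.26 and 0.02 at these times. In T1_NPC against T1 the same setting gave Cd3d 0.09, Cd3g 0.07, Cd4 0.57, Cd8a 1.40, Cd8b 1.38, Cd2 0.41 and Zap70 -0.68, and in T2_NPC against T2 it gave Cd8b 1.20. With the scanner intensities named by rank order, no call changed. Over the 12 undisputed arrays, 5 members were called at T4 against T0 and 2 in T2_NPC against T2 (Cd3d and Lck), and Zap70 changed by 0.07 at T1 and 0.01 at T8. Within scan session 1, an alternative chosen after seeing the data, Zap70 had the same changes of 0.07 and 0.01. This is no second check, since the arrays of session 1 are the undisputed time-course arrays. In T2_NPC against T2, 1 member (Cd3d) was called with normexp background correction and 1 with only the groups compared. Other values that turned sign were not called: with scaling to the 75th percentile Cd4 0.01 and Cd5 0.13, with the slide as a random block Cd4 0.02 and with normexp Cd8a 0.02, all in T1_NPC against T1, and with normexp Lck -0.00 in T2_NPC against T2.

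Leaving out 1 array at a time, 6 to 9 members were called at T1, 6 to 9 at T2, 6 to 9 at T4 and 8 to 9 at T8 against T0, and 0 to 1 in T2_NPC against T2. In T1_NPC against T1, the changes then ranged from -0.14 to 0.55 (Cd3e), -1.25 to 0.24 (Cd3g), -0.19 to 0.26 (Cd4), -0.39 to 0.87 (Cd8a), -1.02 to 0.10 (Cd8b), -1.36 to 0.20 (Cd2), -0.57 to 0.62 (Cd5), -0.17 to 0.07 (Lck) and -0.12 to 0.13 (Zap70). In T2_NPC against T2 they ranged from -0.10 to 0.35 (Cd8a), -0.09 to 1.04 (Cd2) and -0.14 to 0.29 (Lck). Replicate numbers did not pair the arrays (same-numbered deviations correlated at -0.0129 on average, over 0.1 in 8 of 24 pairs). With the replicate number as a block, 9, 8, 7 and 9 members were called at T1, T2, T4 and T8 and 0 in every other comparison. Between neighbouring times and for the difference between transplantation effects, single members were reported as ranges only. In those comparisons, 64 uncalled values turned sign among the alternatives and 53 on leaving out 1 array.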
